A study of Mus musculus with 6 samples.

Results

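Skeletal muscle contractile genes are the 43 named genes that encode the sarcomere of the muscle fibre, the calcium release and uptake that starts and stops its contraction, and the enzymes and carriers that feed it. They were taken by gene symbol, each from the probe set with exactly 1 gene symbol in the array annotation and the highest mean over the 6 arrays. All 43 were measured, among 30702 genes so named, and each had a lone probe set. The tissue was the subcutaneous inguinal fat pad of 2-month-old C57BL/6 males, and its RNA was read on microarrays. The KO group was 3 mice with floxed Tfg alleles and Adipoq-ERT2Cre, a tamoxifen-inducible Cre recombinase driven by the promoter of the adipocyte gene for adiponectin. The WT group was 3 mice with the floxed Tfg alleles and no Cre, which the labels call wild type. Both groups were given tamoxifen for 5 days and fat was taken 2 weeks later. The Cre is driven in adipocytes, not in muscle fibres, and whole fat holds many other cell types. Tfg, the deleted gene, read 7.99, 8.21 and 8.03 on the KO-labelled arrays and 7.97, 7.94 and 7.91 on the WT-labelled arrays. It was therefore not lower on the arrays labelled KO, and which exons its probe set reads is not given here.

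In a muscle fibre, myosin thick filaments pull on actin thin filaments, which are anchored at the Z disc and held in register by titin and nebulin. Calcium released from the sarcoplasmic reticulum binds troponin C and moves tropomyosin aside, and a calcium pump then takes it back up. Fast and slow fibres build the same machine from different isoforms of myosin, troponin and the calcium-handling proteins. White fat is not a contractile tissue, and its muscle signal is usually low. In bulk RNA a greater number of muscle cells and more muscle RNA per cell cannot be told apart.

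The signal of these genes differed more among the KO-labelled mice than among the WT-labelled mice. The SD was larger in the KO group for 38 of the 43 genes, as it was for 72.0% of all named genes, so a wider KO spread was common across the array. On KO 2 and, less so, on KO 1, most fast fibre genes read well above every WT-labelled array, while on KO 3 they read at or slightly below the WT level. At least 1 log2 unit above the WT mean stood 12 of the 43 genes on KO 1, 16 on KO 2 and 0 on KO 3. Among all named genes the shares were 4.31% on KO 1, 10.3% on KO 2 and 5.27% on KO 3. The 12 genes of KO 1 were all among the 16 of KO 2, and each of the 12 read higher on KO 2 than on KO 1, by 0.90 to 2.57. On KO 3 these 12 genes lay between -0.35 and 0.28 of the WT mean. Mybpc2, Myh2, Mylpf and Pvalb were the 4 that passed this distance on KO 2 and not on KO 1. No member lay 1 or more below the WT mean on any KO-labelled array, where 3.32% of named genes did on KO 1, 17.5% on KO 2 and 4.86% on KO 3. Below every WT-labelled array lay 12 of the 43 genes on KO 1, 11 on KO 2 and 32 on KO 3, against 53.7%, 63.7% and 55.4% of named genes. On KO 3 another 7 of the 43 genes lay within the WT range, as did 20.1% of named genes. A WT-labelled array never differed from another by more than 0.44 for any of the 43 genes, against a range of up to 6.27 among the KO-labelled arrays.

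The arrays themselves were not alike. The median signal of all probe sets was 6.76 on KO 1, 6.47 on KO 2 and 6.73 on KO 3, and 6.96 to 7.02 on the WT-labelled arrays. Over all probe sets the KO-minus-WT change had a median of -0.37. KO 2 correlated with KO 1 and KO 3 at 0.96 and 0.965 across probe sets, and KO 1 with KO 3 at 0.986. With the WT-labelled arrays KO 2 correlated at 0.874 to 0.9, where KO 1 and KO 3 correlated at 0.947 to 0.969, so KO 2 stood apart from the other 5 arrays. After each array was centred on its median, 13 of the 43 genes on KO 1, 24 on KO 2 and 0 on KO 3 stood at least 1 above the WT mean. Among all named genes the centred shares were 6.56% on KO 1, 17.1% on KO 2 and 7.91% on KO 3. Centred values above every WT-labelled array were found for 32 of the 43 genes on KO 1, 40 on KO 2 and 13 on KO 3, against 41.8%, 49.1% and 43.6% of named genes. No detection calls were used here, so whether the WT level of a gene is above background was not tested. The 43 genes read 6.08 to 8.68 on the WT-labelled arrays, where 9 genes of heart muscle read 4.85 to 7.52.

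**Figure D1:**
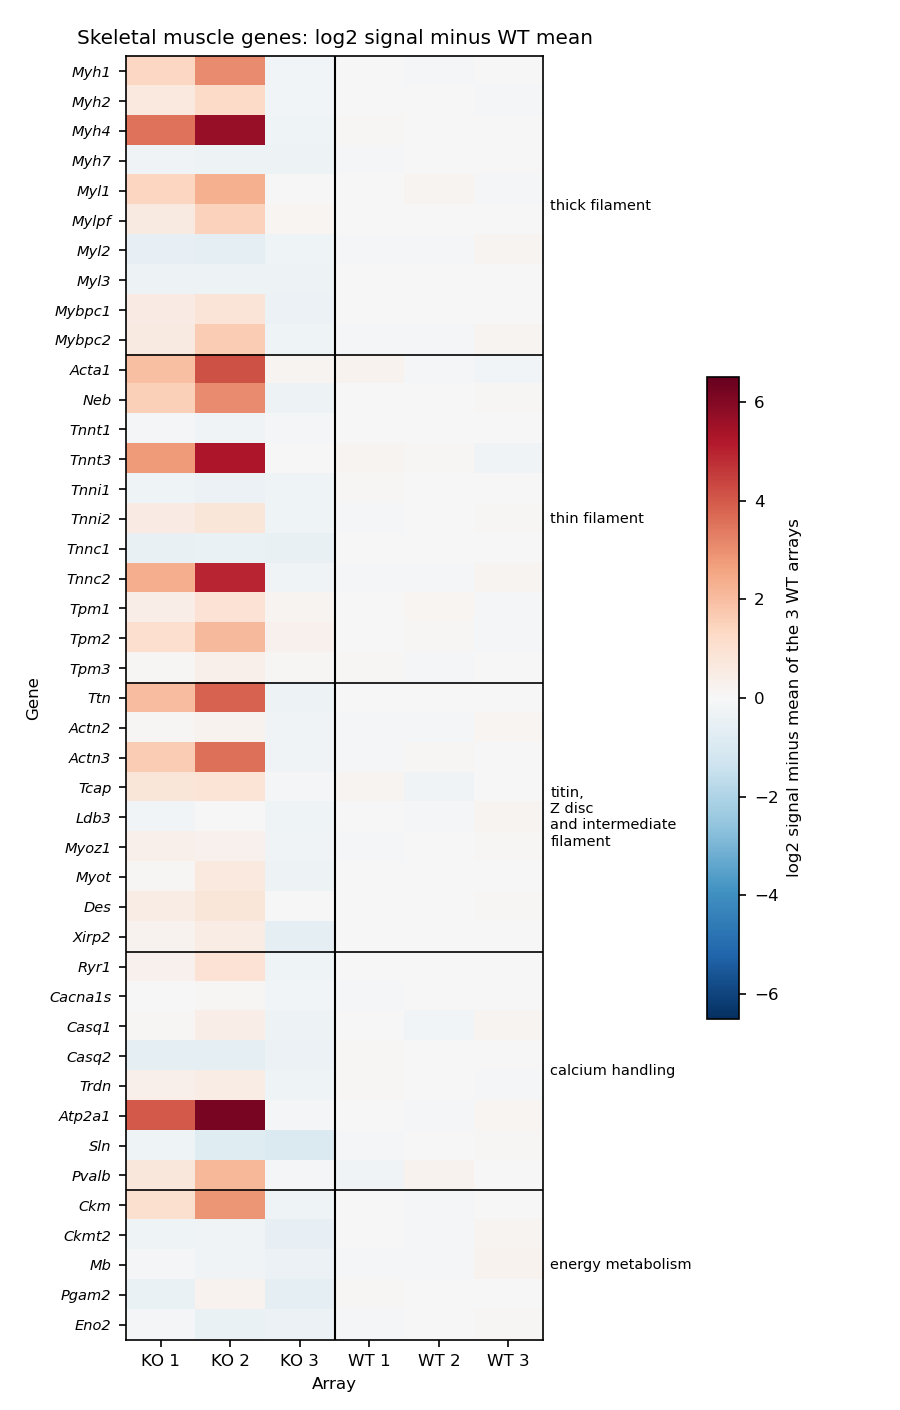
Log2 signal of the 43 skeletal muscle genes on each array, minus the mean of the 3 WT-labelled arrays, ordered by role (rows) with KO-labelled arrays left of WT-labelled arrays (columns). Red is higher and blue is lower than the WT mean. KO 2 holds the darkest red cells and KO 1 many of the same genes at a paler shade, while no gene on KO 3 reaches 1 above the WT mean.

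limma compared the 3 KO-labelled with the 3 WT-labelled arrays over all 65956 probe sets, with Benjamini-Hochberg adjustment and an adjusted p under 0.05 as the threshold. Of the 43 genes it called 0 higher and 2 lower in the KO group. Over all probe sets it called 5.32% higher and 15.6% lower. This split depended on the scale: 3509 probe sets were called higher and 10282 lower as deposited, 4032 and 2212 after quantile normalization, and 5146 and 3259 after centring. At an unadjusted p under 0.05 the 43 genes held 2 that were higher and 8 that were lower, where all probe sets held 9.12% and 38.8%. The median change of the 43 genes was 0.32, against -0.27 for all named genes. For most fast fibre genes the KO group mean thus combines 2 mice with high signal and 1 near the WT level, and their standard errors reached 1.49. The median change of the 43 genes was 0.63 without KO 3, 0.06 without KO 2 and 0.23 without KO 1. Without KO 3, 23 of the 43 genes were higher at an unadjusted p under 0.05, as were 5710 of all 65956 probe sets. After adjustment limma then called 0 of the 65956 probe sets.

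Among the genes of the thick filament, the fast myosins carried the largest differences. Myh4, which encodes the myosin heavy chain of the fastest fibres (type IIb), read 10.09, 12.23 and 6.28 on the KO-labelled arrays, against 6.65, 6.51 and 6.51 on the WT-labelled arrays. KO 1 and KO 2 were 11.6-fold and 51.0-fold above the WT mean, and KO 3 was below all 3 WT-labelled arrays. The change of 2.98 ± 1.41 (SE, n = 3 each) did not pass limma (adjusted p = 0.14). Myh1, of type IIx fibres, read 8.10, 9.82 and 6.58 on KO-labelled and 6.77, 6.67 and 6.80 on WT-labelled arrays. Myh2, of type IIa fibres, read 7.41, 7.97 and 6.57 on KO-labelled and 6.79, 6.77 and 6.69 on WT-labelled arrays. The order on KO 2 was thus Myh4, then Myh1, then Myh2 in distance from the WT mean, at 5.67, 3.07 and 1.22. These myosin genes are close in sequence, so signal from one of them on the probes of another cannot be told apart here.

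Myh7 encodes the myosin heavy chain of slow fibres and of the heart. It read 6.48, 6.38 and 6.39 on KO-labelled and 6.65, 6.72 and 6.76 on WT-labelled arrays, so all 3 KO-labelled values lay below the WT values, as did 44.9% of all probe sets. Its change of -0.29 ± 0.10 (SE) did not pass (adjusted p = 0.0772). On the deposited scale the light chains divided in the same way. Myl1, the fast essential light chain, read 8.63, 9.53 and 7.21 on KO-labelled and 7.20, 7.40 and 7.08 on WT-labelled arrays. Mylpf, the fast regulatory light chain, read 6.71, 7.63 and 6.26 on KO-labelled and 6.12, 6.14 and 6.08 on WT-labelled arrays. It was 1 of 3 members, with Tpm1 and Tpm2, whose KO-labelled values all lay above the WT values, which held for 11.1% of all probe sets. The slow and cardiac light chains Myl2 and Myl3 lay below the WT values on all 3 KO-labelled arrays. Their changes were -0.47 ± 0.15 and -0.33 ± 0.10 (SE, limma adjusted p = 0.0622 and 0.056). Relative to the median probe set the changes of Myh7, Myl2 and Myl3 were 0.07, -0.10 and 0.04. Myosin binding protein C of fast fibres, Mybpc2, stood 1.65 above the WT mean on KO 2, and its slow counterpart Mybpc1 0.85.

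In the thin filament the largest values were those of the fast troponins. Tnnt3, which encodes fast troponin T, the subunit that binds tropomyosin, read 10.49, 12.98 and 7.75 on KO-labelled and 7.87, 7.78 and 7.49 on WT-labelled arrays. Its change of 2.69 ± 1.23 (SE) had an adjusted p of 0.13. Tnnc2, which encodes the calcium-binding troponin C of fast fibres, read 9.81, 12.38 and 7.23 on KO-labelled and 7.37, 7.33 and 7.61 on WT-labelled arrays. KO 2 was 38.5-fold above the WT mean for Tnnt3 and 30.8-fold for Tnnc2, while KO 3 overlapped the WT-labelled arrays for Tnnt3 and read below them for Tnnc2. Tnni2, the inhibitory subunit of fast fibres, reached only 0.81 above the WT mean on KO 2.

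Tnnc1, the slow and cardiac troponin C, was called lower. It read 7.34, 7.41 and 7.37 on KO-labelled and 7.82, 7.83 and 7.87 on WT-labelled arrays, a change of -0.47 ± 0.10 (SE, n = 3 each, limma adjusted p = 0.0379), which is -0.10 relative to the median probe set. After centring on the array medians or quantile normalization the call was lost, as it was without KO 1, KO 3 or any 1 of the WT-labelled arrays. The slow troponins Tnnt1 and Tnni1 had changes of -0.15 and -0.30 and did not pass (adjusted p = 0.285 and 0.0829). Relative to the median probe set these changes were 0.22 and 0.07. Acta1, the skeletal muscle actin, read 9.59, 11.79 and 7.80 on KO-labelled and 7.88, 7.58 and 7.46 on WT-labelled arrays. Neb, which encodes nebulin, the ruler of thin filament length, read 8.15, 9.67 and 6.31 on KO-labelled and 6.61, 6.57 and 6.68 on WT-labelled arrays. Of the tropomyosins, Tpm2 stood 2.09 above the WT mean on KO 2, Tpm1 0.96 and the slow form Tpm3 0.33. Tpm1 and Tpm2 are also made by smooth muscle, and Tpm3 by most cells.

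Upstream sequences from the RefSeq table of GRCm38.p6 are shown for the pump gene Atp2a1 and the fast genes Myh4 and Tnnc2, which stood together on KO 1 and KO 2, and for the slow gene Tnnc1, which did not. Each is the 250 bases before the annotated start, read 5′ to 3′ on the strand of the gene. Capitals mark matches, on either strand, to the E-box CANNTG, which myogenic factors such as MyoD can bind, to the MEF2 consensus, to the CArG box and to TATAAA.
Atp2a1, chr7:126463074-126463323, - strand: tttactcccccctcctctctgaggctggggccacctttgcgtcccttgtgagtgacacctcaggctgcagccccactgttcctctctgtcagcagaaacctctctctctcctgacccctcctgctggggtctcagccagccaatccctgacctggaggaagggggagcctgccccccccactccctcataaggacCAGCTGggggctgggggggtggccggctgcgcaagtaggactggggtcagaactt
Myh4, chr11:67237562-67237811, + strand: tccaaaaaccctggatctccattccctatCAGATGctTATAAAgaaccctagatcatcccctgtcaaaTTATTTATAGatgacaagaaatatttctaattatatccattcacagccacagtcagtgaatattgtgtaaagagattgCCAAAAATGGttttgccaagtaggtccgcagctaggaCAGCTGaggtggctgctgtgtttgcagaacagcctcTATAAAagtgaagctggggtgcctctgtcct
Tnnc2, chr2:164779735-164779984, - strand: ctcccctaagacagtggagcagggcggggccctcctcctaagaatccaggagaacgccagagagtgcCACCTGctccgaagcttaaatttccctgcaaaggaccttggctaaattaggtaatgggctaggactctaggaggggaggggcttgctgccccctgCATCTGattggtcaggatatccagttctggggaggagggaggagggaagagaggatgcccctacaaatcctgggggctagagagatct
Tnnc1, chr14:31208062-31208311, + strand: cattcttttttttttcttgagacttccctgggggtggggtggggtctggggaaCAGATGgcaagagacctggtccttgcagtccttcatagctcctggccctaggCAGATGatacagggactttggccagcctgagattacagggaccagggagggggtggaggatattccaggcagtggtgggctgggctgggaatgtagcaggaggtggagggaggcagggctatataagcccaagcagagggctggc
In Atp2a1 the only match was CAGCTG, a form of CANNTG, from -55 to -50 counted back from the start. Myh4 held 2 CANNTG matches, 1 of them CAGCTG from -67 to -62, a CArG box from -104 to -95, and a MEF2 match from -182 to -173. Its 3 TATAAA matches ran from -213 to -208, from -179 to -174, within the MEF2 match, and from -31 to -26. Tnnc2 and Tnnc1 each held 2 CANNTG matches and none of the other motifs. Of the 27 members with exactly 1 entry in the table, 24 held CANNTG, as did 66.2% of 32851 promoters. CAGCTG was in 13 of the 27 and in 13.0% of all promoters, and the MEF2 consensus in 6 of the 27 and in 2.92%. By fibre set, CAGCTG was in 5 of 9 fast members, 1 of 5 slow members and 7 of 13 members of no fibre set. CANNTG was in 7 of the 9 fast and all 5 slow members, and the MEF2 consensus in 2 fast and 1 slow. The CArG box was in 1 fast and 1 slow member, and TATAAA in 3 fast and 1 slow. Differences between these small sets were not tested. These matches describe the letters of the windows and were looked up after the signals were known.

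**Figure D2:**
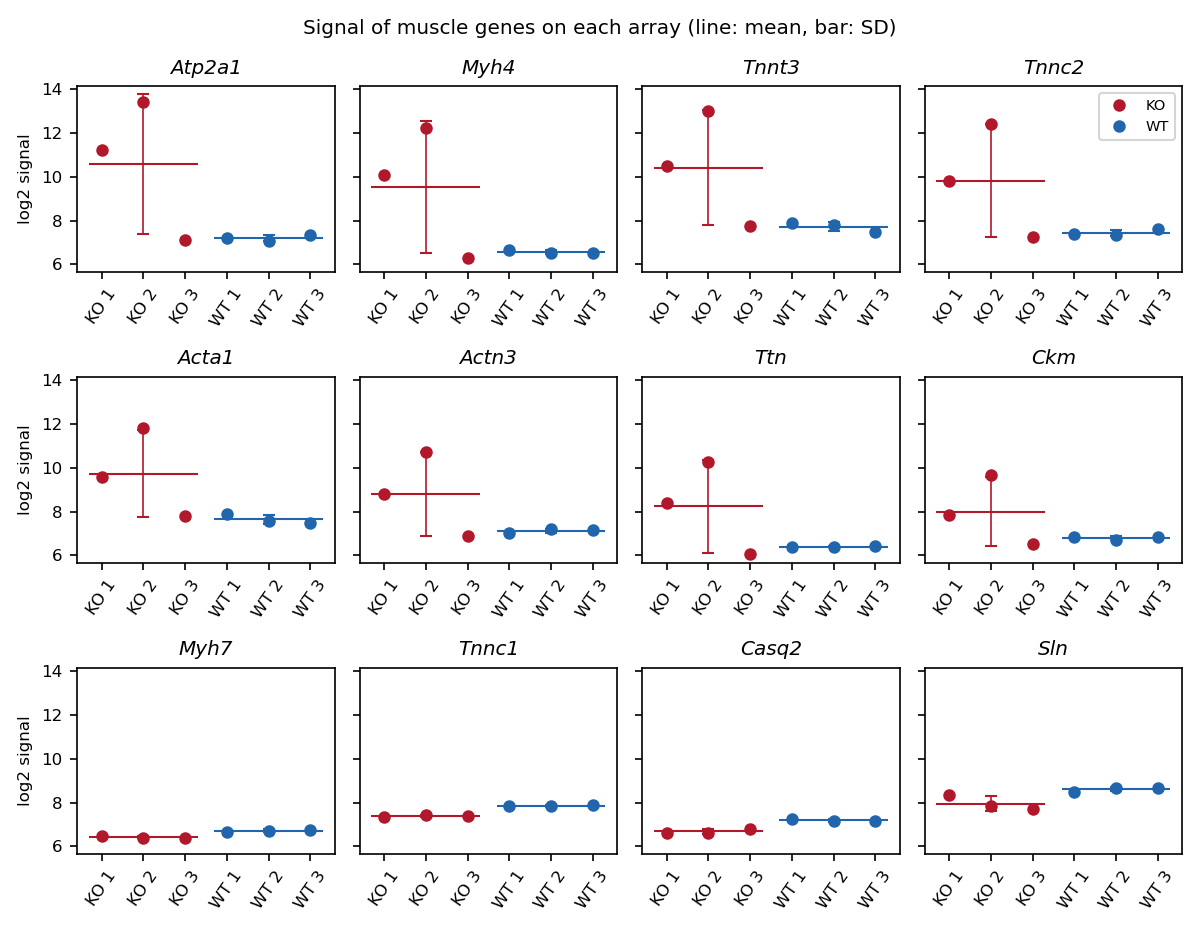
Log2 signal of 12 skeletal muscle genes on each array, KO-labelled arrays in red and WT-labelled arrays in blue, with the mean of 3 arrays as a line and the SD as a bar. In the upper 8 panels KO 2 is highest, KO 1 lies between and KO 3 sits near the WT-labelled arrays, while Myh7, Tnnc1, Casq2 and Sln stay within about 1 log2 unit.

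Of the genes of titin, the Z disc and the intermediate filament, titin and the fast Z-disc protein stood out. Ttn, which encodes the giant spring protein of the sarcomere, read 8.40, 10.24 and 6.04 on KO-labelled and 6.37, 6.37 and 6.43 on WT-labelled arrays. Actn3, the alpha-actinin of fast fibres, read 8.80, 10.70 and 6.89 on KO-labelled and 7.03, 7.19 and 7.17 on WT-labelled arrays. For both, KO 1 and KO 2 lay above and KO 3 below all WT-labelled arrays. Actn2, the alpha-actinin of all fibres and of the heart, had a change of 0.02 ± 0.15 (SE, adjusted p = 0.924). The titin cap gene Tcap read 9.23, 9.34 and 8.29 on KO-labelled and 8.63, 8.21 and 8.45 on WT-labelled arrays. The remaining genes of this group, the Z-disc genes Ldb3, Myoz1 and Myot, the desmin gene Des and Xirp2, stood between -0.03 and 0.81 of the WT mean on KO 2. Their changes lay between -0.16 and 0.45 and none passed. Desmin is also a protein of smooth muscle.

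Among the genes of calcium handling, Atp2a1 had the largest spread of all. It encodes SERCA1, the calcium pump of fast fibres, and read 11.20, 13.39 and 7.12 on KO-labelled and 7.19, 7.08 and 7.36 on WT-labelled arrays. KO 1 and KO 2 were 15.9-fold and 72.5-fold above the WT mean, and KO 3 lay within the WT range. On KO 2 it exceeded 98.6% of the named genes, and on KO 3 60.0%. Its change of 3.36 ± 1.49 (SE, n = 3 each) did not pass (adjusted p = 0.123). Pvalb, the calcium buffer of fast fibres, read 7.92, 9.30 and 7.05 on KO-labelled and 6.95, 7.39 and 7.13 on WT-labelled arrays. The release channel gene Ryr1 stood 0.96 above the WT mean on KO 2, and its partners Trdn, Casq1 and Cacna1s 0.48, 0.43 and 0.07.

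Casq2, which encodes the calcium-storing calsequestrin of heart and slow fibres, was the other gene called lower. It read 6.63, 6.61 and 6.81 on KO-labelled and 7.27, 7.15 and 7.16 on WT-labelled arrays, a change of -0.51 ± 0.11 (SE, limma adjusted p = 0.0392), or -0.14 relative to the median probe set. That call was lost under the same settings and with the same arrays left out as that of Tnnc1. Sln, which encodes sarcolipin, a small inhibitor of SERCA pumps, read 8.33, 7.82 and 7.69 on KO-labelled and 8.50, 8.64 and 8.68 on WT-labelled arrays. All 3 KO-labelled values of Sln lay below the WT values, as did 44.9% of all probe sets. Its change of -0.66 ± 0.19 (SE) missed the threshold (limma adjusted p = 0.0534) and was -0.29 relative to the median probe set. After centring on the array medians the change of Sln was -0.33 (limma adjusted p = 0.245).

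Energy genes were mixed. Ckm, the muscle creatine kinase, read 7.84, 9.66 and 6.51 on KO-labelled and 6.83, 6.72 and 6.85 on WT-labelled arrays. The muscle phosphoglycerate mutase Pgam2 read 6.91, 7.58 and 6.68 on KO-labelled and 7.42, 7.29 and 7.28 on WT-labelled arrays, so that KO 2 lay above and KO 1 and KO 3 below the WT-labelled arrays. The oxygen carrier myoglobin, Mb, and the mitochondrial creatine kinase Ckmt2, both rich in oxidative fibres, had changes of -0.24 and -0.36 and did not pass (adjusted p = 0.225 and 0.0986). Relative to the median probe set these changes were 0.13 and 0.01. Eno2 encodes the enolase of neurons, and read 6.45, 6.17 and 6.22 on KO-labelled and 6.48, 6.62 and 6.64 on WT-labelled arrays. The muscle enolase gene is Eno3, which read 8.09, 9.52 and 7.69 on KO-labelled and 7.84, 7.82 and 7.85 on WT-labelled arrays, with the same order of the KO-labelled arrays as Ckm.

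Grouped by fibre type, the 14 fast fibre genes had a median distance from the WT mean of 1.06 on KO 1, 2.22 on KO 2 and -0.19 on KO 3. The 9 slow fibre genes had medians of -0.26, -0.33 and -0.32, and all named genes -0.17, -0.40 and -0.19. All 14 fast genes exceeded every WT-labelled array on KO 2 and 13 did on KO 1, where 26.3% and 23.7% of named genes did so, while 1 did on KO 3, where 24.5% did. Of the 9 slow genes, 2 exceeded every WT-labelled array on KO 2 (Mybpc1 and Tpm3), 1 on KO 1 (Mybpc1) and 1 on KO 3 (Tpm3). After centring, 7 of the 9 slow genes exceeded every WT-labelled array on KO 2, 3 on KO 1 and 2 on KO 3, with medians of 0.18 on KO 2, -0.03 on KO 1 and -0.07 on KO 3. The centred medians of the fast genes were 2.74 on KO 2, 1.28 on KO 1 and 0.06 on KO 3. Limma called 0 of the 14 fast genes, and 2 of the 9 slow genes lower, where it called 5.32% of all probe sets higher and 15.6% lower. The difference between the fibre sets was described and not tested, since genes are not replicates.

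**Figure D3:**
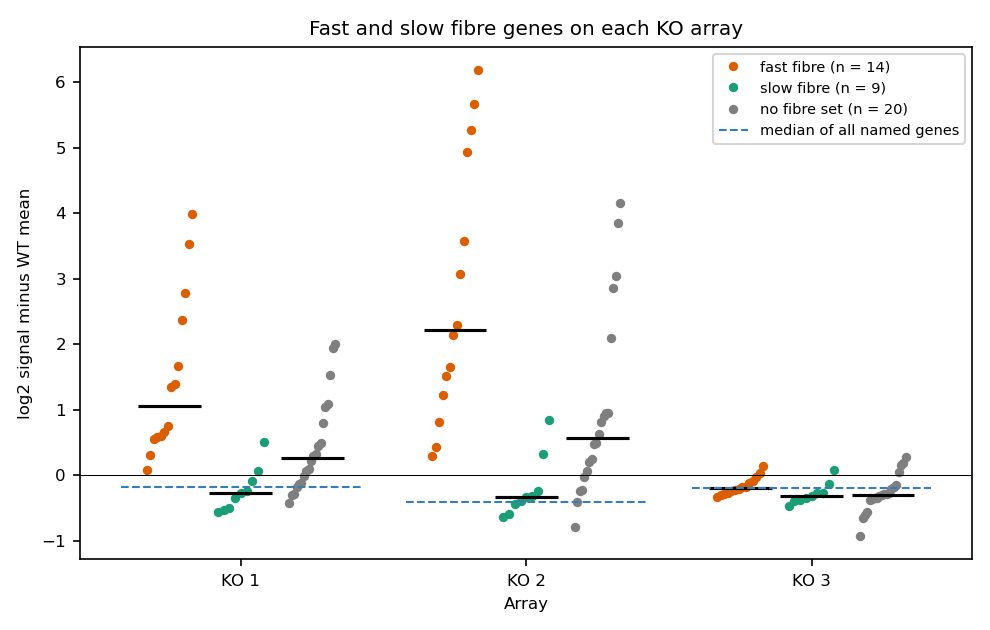
Distance of each of the 43 genes from its WT mean (log2 signal) on each KO-labelled array, by fibre set, with the median of each set as a black bar and the median of all 30702 named genes as a dashed line. Fast fibre genes reach 6.18 on KO 2 and 3.99 on KO 1 and lie near 0 on KO 3, and the medians of the slow fibre genes lie near the dashed line, with Mybpc1 the slow gene farthest above it, at 0.85 on KO 2.

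Muscle genes were frequent among the named genes that differed most between KO-labelled arrays. Of the 10 named genes with the largest excess of KO 2 over KO 3, 8 were members: Atp2a1, Myh4, Tnnt3, Tnnc2, Ttn, Acta1, Actn3 and Neb. Among the top 20 were 10 members, with Myh1 and Ckm added. For the excess of KO 1 over KO 3, 5 of the top 10 and 6 of the top 20 named genes were members. At least 1 log2 unit higher on KO 2 than on KO 3 stood 21 of the 43 genes and 3.47% of all named genes. At least 2 units higher stood 12 of the 43 genes and 0.339% of named genes. The order KO 2, KO 1, KO 3 from high to low held for 31 of the 43 genes, 13 of them among the 14 fast genes, and for 12.0% of named genes. The muscle glycogen phosphorylase gene Pygm, chosen after its values were seen, also stood among the top 10, at 8.84, 10.81 and 7.21 on KO-labelled and 7.38, 7.36 and 7.13 on WT-labelled arrays.

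Further muscle genes followed only in part. Of 65 genes in lists of sarcomere and scaffold, excitation and calcium, and energy enzymes, 63 were measured, and limma called 6 higher and 2 lower, against 5.32% and 15.6% of all probe sets. Their median distance from the WT mean was -0.03 on KO 1, -0.02 on KO 2 and -0.23 on KO 3. For all named genes it was -0.17, -0.40 and -0.19. After centring, the medians of the 63 genes were 0.19 on KO 1, 0.49 on KO 2 and 0.02 on KO 3. Those of all named genes were then 0.05, 0.12 and 0.06. The order KO 2, KO 1, KO 3 from high to low held for 28 of the 63 genes and for 12.0% of named genes. In the sarcomere and scaffold list 0 of 29 genes were called, with 0 higher and 4 lower at an unadjusted p under 0.05, where 9.12% and 38.8% of all probe sets were. Among them Mybph, Csrp3 and Lmod3, named for the smallest p of the list, had changes of -0.41, -0.41 and -0.39 and did not pass. After centring they stood at -0.28 to 0.08 of their WT means on the KO-labelled arrays. Of 16 energy enzyme genes 5 rose. Cox8b, a cytochrome c oxidase subunit of muscle and brown fat, rose by 3.53, the adenine nucleotide carrier gene Slc25a4 by 1.69 and the glycogen synthase gene Gys1 by 1.40. These 3 read higher than every WT-labelled array on KO 3 too, where Cox8b read 9.16. Of 18 excitation and calcium genes, Atp2a2, the pump of slow fibres, heart and most other cells, rose by 1.77 ± 0.40 (SE, adjusted p = 0.0395). Chrne and Clcn1, an acetylcholine receptor subunit and the muscle chloride channel, fell by 0.84 and 0.50. After centring, Chrne stood at -0.48, -0.64 and -0.39 of its WT mean on KO 1, KO 2 and KO 3, and Clcn1 at -0.07, -0.12 and -0.31.

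Genes of muscle formation and of other muscle types were read beside them. For the counts that follow, the shares over all probe sets were 5.32% called higher and 15.6% called lower. Of 11 myogenic factor genes, Mef2a rose, by 1.53 ± 0.35 (SE, adjusted p = 0.0399), at 8.91, 9.98 and 8.63 on KO-labelled and 7.73, 7.58 and 7.61 on WT-labelled arrays. Msc and Mef2d, also transcription factors, had changes of 0.46 and 0.41 that did not pass (adjusted p = 0.0515 and 0.0674). Myod1, Myog and Pax7, the markers of myoblasts and satellite cells, had changes of -0.27, -0.15 and -0.16 and did not pass (adjusted p = 0.169, 0.295 and 0.295). The embryonic and neonatal myosin genes Myh3 and Myh8 had changes of -0.09 and -0.11, and of the 5 developmental isoform genes Chrng and Tnnt2 fell, by 0.61 and 0.56, while Myl4 had a change of -0.25 and did not pass. After centring, Chrng stood at -0.36 to -0.19 of its WT mean and Tnnt2 at -0.32 to -0.16. Of 9 heart muscle genes 0 were called higher and Nppa and Nppb fell, by 1.0 and 0.63, and Mybpc3 had a change of -0.39 that did not pass. After centring, Nppa stood at -0.96 to -0.52 of its WT mean and Nppb at -0.43 to -0.20. Myh6, the cardiac myosin heavy chain gene, read below its WT values on all 3 KO-labelled arrays as deposited, and at 0.04, 0.05 and 0.01 above its WT mean on KO 1, KO 2 and KO 3 after centring. Of 10 smooth muscle genes Smtn and Acta2 rose, by 0.59 and 1.34. Acta2, the smooth muscle actin, read 8.29, 9.38 and 8.91 on KO-labelled and 8.01, 7.55 and 7.01 on WT-labelled arrays, so KO 3 was above KO 1. Myh11, the smooth muscle myosin, had a change of 0.36 and did not pass (adjusted p = 0.125), and neither did Cald1, at 0.33. Of 12 nerve genes 1 fell, Th, by 0.58, and it stood at -0.26 to -0.24 of its WT mean after centring. S100b and Syt1 had changes of -0.51 and -0.46 and did not pass.

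Most adipocyte genes were high on all 3 KO-labelled arrays. Of 12 measured, 9 rose and 11 had all KO-labelled values above all WT-labelled values, with Lep the exception. Over all probe sets limma called 5.32% higher, and 11.1% had all KO-labelled values above all WT-labelled values. The median distance of the 12 adipocyte genes from the WT mean was 2.27 on KO 1, 3.20 on KO 2 and 2.26 on KO 3. Pparg, Aqp7 and Adig rose by 3.66, 3.31 and 2.31. Adipoq read 12.73, 13.01 and 12.57 on KO-labelled and 9.80, 10.97 and 8.76 on WT-labelled arrays. Of 8 brown and beige fat genes Cpt1b rose, by 0.79, and Cidea had a change of 1.49 that did not pass (adjusted p = 0.0506). Ucp1 read 6.05, 7.07 and 6.12 on KO-labelled and 5.40, 5.65 and 5.34 on WT-labelled arrays, a change of 0.95 that did not pass (adjusted p = 0.06). Of 12 housekeeping genes 5 rose, among them Actb by 2.17, Ywhaz by 1.20 and Rplp0 by 1.18, with medians over the list of 0.47 on KO 1, 1.06 on KO 2 and 0.70 on KO 3. KO 2 was the farthest from the WT mean in the adipocyte, brown fat and housekeeping lists as well. KO 1 and KO 3 had nearly the same adipocyte median but not the same fast fibre median. What part the array-wide differences of KO 2 had in the muscle values was not tested.

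**Figure D4:**
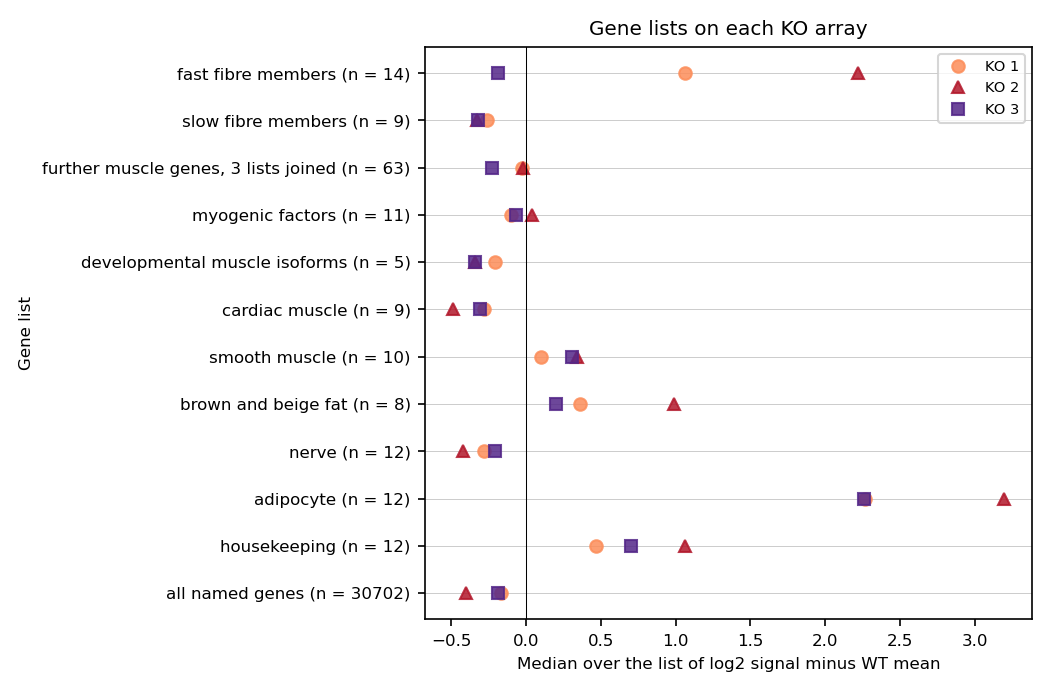
Median over each gene list of the log2 signal minus the WT mean, for each of the 3 KO-labelled arrays, with the number of measured genes in brackets. The 3 arrays are spread from -0.19 to 2.22 for the fast fibre genes, and from -0.33 to -0.26 for the slow fibre genes.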

How the data were processed

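The authors deposited log2 signals, 1 value per probe set and array, for 65956 probe sets on 6 arrays. Per the labels, RNA was biotinylated with the GeneChip WT Pico kit, and per the submitters' processing notes the values come from Transcriptome Analysis Console. The sources used here do not state how signals were background-corrected, normalized or summarized. Values run from 2.81 to a ceiling of 19.93, which no member reached.

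The array's annotation, with older symbols replaced from RefSeq (GRCm38.p6), gave 31258 probe sets exactly 1 symbol, 1492 several and 33206 none. limma 3.58.1 (R 4.3.3, lmFit, eBayes without trend) compared KO-labelled with WT-labelled arrays over all probe sets on the deposited values, with genotype as the only term. The 3 arrays per group and the spread between them limit the precision. The procedure was tested on simulated data, drawn without an array-wide shift or an outlying array. That test therefore does not cover these traits of the real arrays.

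The members and the 11 further lists (153 genes, 142 measured, the others not analysed here) were chosen with earlier results of these data known. All members are named, with the 3 smallest p of each list and a fixed set. The alternatives were quantile normalization, median centring, fewer probe sets, other moderation, array weights, a replicate block, another threshold and each array left out. The mean over the probe sets of a gene was listed too, but it repeated the main fit, since each member had a lone probe set. The deviations of same-numbered KO-labelled and WT-labelled arrays from their group means correlated at 0.002, 0.205 and 0.139. Those of unlike-numbered arrays correlated at -0.216 to 0.171. With so few arrays these values cannot decide whether the numbers pair the mice. Python 3.11.15, pandas 2.3.3 and matplotlib 3.10.9 made tables and plots.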

Additional observations from a re-analysis of the deposited data

How the results depend on the processing

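Tnnc1 and Casq2 stayed called lower with fewer probe sets, other moderation, array weights, an adjusted p under 0.1 and without KO 2. Both calls were lost with rescaling, with the replicate block and without any other array. The count of members called lower was 0 after quantile normalization, 0 after centring arrays on their medians and 0 with the replicate block. In these settings limma called lower 2212, 3259 and 8267 of all 65956 probe sets. The member count was 4 without the dimmest probe sets (mean up to 6.43) and 5 among probe sets with 1 gene symbol. There 9795 of 43933 and 6773 of 31258 probe sets were called lower. With array weights 7 members were called lower, and 8 at an adjusted p under 0.1. Of all 65956 probe sets 17432 and 24774 were called lower in these 2 settings. With arrays left out in turn the count of members called lower ranged from 0 to 3. It was 1 without KO 1 and 3 without KO 2, where 10697 and 6921 of all 65956 probe sets were called lower. It was 0 without KO 3 and without WT 1, WT 2 or WT 3, where limma called 0 probe sets in all. Without KO 3, 23 members were higher at an unadjusted p under 0.05, as were 5710 of all 65956 probe sets. The count of members called higher was 0 throughout, except 1 at an adjusted p under 0.1, Tpm2, where 5902 of all 65956 probe sets were called higher. Array weights, which gave KO 2 a weight of 0.22 and KO 3 one of 2.37, moved the median change of the members to -0.03, against 0.60 after quantile normalization and 0.65 after centring.

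Of 685 changes of members set against the main fit, 617 kept their direction and side of the threshold. Another 16 lost and 19 gained a call. The 33 that turned sign were all of genes whose change had not been called. The 685 include the mean over the probe sets of a gene, which could change nothing, since each member had a lone probe set. They also include an adjusted p under 0.1, which keeps the main changes and cannot turn a sign. After quantile normalization Myh7 stood at 0.06, Tnnt1 at 0.07, Tnni1 at 0.04, Ldb3 at 0.20, Cacna1s at 0.27, Ckmt2 at 0.01 and Eno2 at 0.06. After centring Myh7 stood at 0.04, Tnnt1 at 0.18, Tnni1 at 0.03, Ldb3 at 0.17, Cacna1s at 0.29, Mb at 0.09, Pgam2 at 0.06 and Eno2 at 0.03. Both settings raise the KO-labelled arrays against the WT-labelled arrays, moving the median change of all probe sets from -0.37 to -0.04. With array weights Mybpc1 stood at -0.07, Actn2 at -0.10, Myoz1 at -0.03, Myot at -0.17, Xirp2 at -0.31, Ryr1 at -0.05, Casq1 at -0.16 and Trdn at -0.07. With arrays left out in turn, 5 members changed sign: Actn2 ranged from -0.07 to 0.14, Myot from -0.13 to 0.36, Xirp2 from -0.19 to 0.36, Cacna1s from -0.09 to 0.03 and Casq1 from -0.12 to 0.26. The causes of the sign changes were not tested.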
